A study of Macaca mulatta with 12 samples.

Results

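The 7 genes described here are GCA, SH3YL1, ZBTB33, C1H1orf115, PIGP, AKAP7 and CSGALNACT2. These genes had lower transcript levels, some near the background, in 1 type of rhesus macaque embryonic stem (ES) cell line than in the other. They were picked from 12993 named genes because both parthenogenetic lines, rPESC-2 and ORMES-9, lay far from the biparental line ORMES-22, and every probe set annotated with one of their symbols was taken, 12 of the 52766 probe sets on the array. The differences of rPESC-2 and of ORMES-9 from ORMES-22 therefore chose these genes, and they are given as a description with no test. All 7 genes matched the reference gene table by their gene ID, and they lie on 7 different chromosomes (GCA on 12, SH3YL1 on 13, ZBTB33 on X, C1H1orf115 on 1, PIGP on 3, AKAP7 on 4 and CSGALNACT2 on 9).

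Total RNA of 4 cell populations was hybridised to Affymetrix rhesus arrays, with 3 arrays labelled A, B and C for each. ORMES-22 came from a blastocyst made by in vitro fertilisation so each of its cells holds genomes from both parents. rPESC-2 came from a parthenogenetic blastocyst, in which an egg develops without sperm, and is described as heterozygous. ORMES-9 is described as a homozygous parthenote with maternal alleles only, although its source field names a fertilised blastocyst, and it was treated as parthenogenetic. All 3 ES lines are female. They were grown on inactivated mouse embryonic fibroblast feeder cells in medium with fetal bovine serum, and colonies that looked undifferentiated were collected at passages 18, 21 and 19 (ORMES-22), 16, 10 and 16 (rPESC-2) and 13, 14 and 16 (ORMES-9). The somatic control was skin fibroblasts of a male aged 9 years, whose culture protocol names no feeder cells and a lower share of serum. Each population is 1 line, so a difference between lines cannot be told apart from a difference between kinds of embryo, and the p-values measure only the spread between cultures of a line.

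The 7 genes do different work in the cell. GCA (grancalcin) is a calcium-binding protein of the penta-EF-hand family, known from the granules of neutrophils, and SH3YL1 binds phosphoinositide lipids and takes part in membrane ruffling. AKAP7 is an anchoring protein that holds protein kinase A at membranes and ion channels. ZBTB33, also called Kaiso, is a zinc finger repressor that binds methylated DNA and partners with p120 catenin. PIGP is a subunit of the enzyme complex that begins the synthesis of glycosylphosphatidylinositol (GPI) anchors, which tether proteins to the cell surface. CSGALNACT2 adds N-acetylgalactosamine to growing chondroitin sulfate chains. C1H1orf115 is the macaque counterpart of a little studied human membrane protein that has been linked to drug export. Parthenogenetic cells lack a paternal genome and so are known for losing transcripts of genes that are active only on the paternal copy.

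Levels are log2 values summarised by the authors with RMA, and a gene with several probe sets was represented by its brightest (highest 12-array mean) unless stated. Bacterial control transcripts, which macaque cells do not make, are read by 42 probe sets on the array. Their 90th percentile was 4.26, and a value at or below it is called background here. Array medians lay between 5.012 and 5.098. A gene was called changed where limma gave an adjusted p under 0.05 over all probe sets and the difference was at least 2-fold. In a bulk sample, fewer cells that express a gene and less RNA per cell cannot be told apart.

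**Figure D1:**
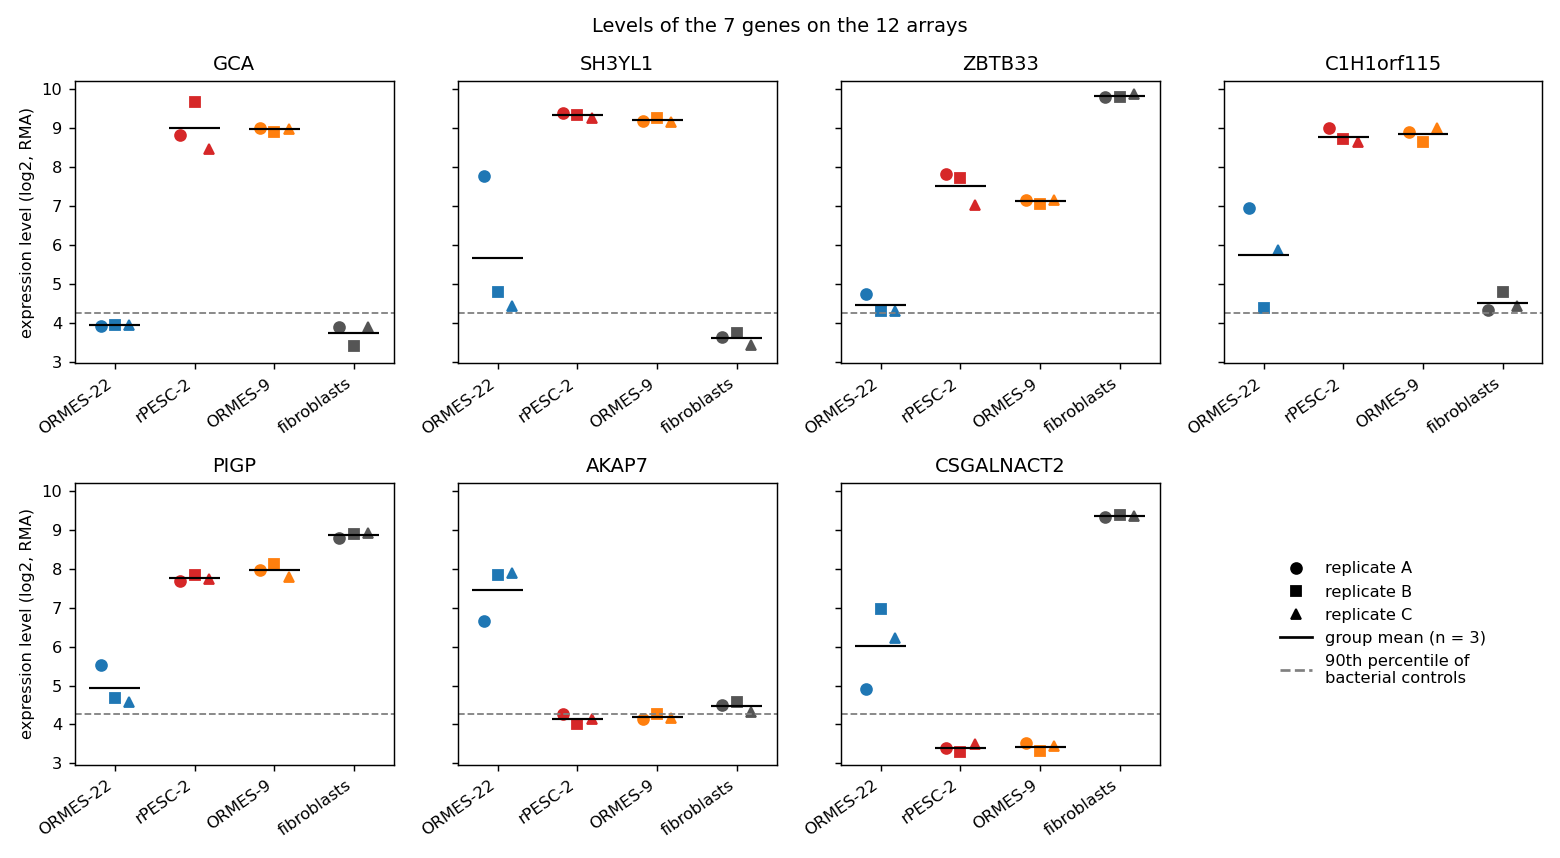
Log2 expression level (RMA, vertical axes) of the 7 genes on each of the 12 arrays, grouped by cell population; marker shapes give the replicate, horizontal bars the mean of 3 arrays and the dashed line the background at 4.26. GCA, SH3YL1, ZBTB33, C1H1orf115 and PIGP are higher in rPESC-2 and ORMES-9 than in ORMES-22, AKAP7 and CSGALNACT2 are lower, and the fibroblasts take either end of the range.

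GCA was the gene with the widest step. Its log2 level was 3.91, 3.95 and 3.95 in ORMES-22 replicates A, B and C. It was 8.83, 9.68 and 8.47 in rPESC-2 and 9.01, 8.91 and 8.99 in ORMES-9. In the fibroblasts it was 3.88, 3.41 and 3.89. The ORMES-22 and fibroblast arrays were thus all at background, and the 6 parthenogenetic arrays were all far above it without any overlap. The means of rPESC-2 (8.99 ± 0.62, SD, n = 3) and ORMES-9 (8.97 ± 0.05, SD, n = 3) exceeded that of ORMES-22 (3.93 ± 0.02, SD, n = 3) 33.3-fold and 32.8-fold, folds that are set against values at background. GCA was the single gene of 12993 (0.0077%) with all 3 ORMES-22 arrays at background and all 6 parthenogenetic arrays at least 3 log2 units above it, and 6 genes (0.0462%) met the weaker condition that the 6 arrays lay above background. These counts describe the contrast that picked the gene.

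SH3YL1 behaved differently within ORMES-22. Its log2 level was 7.78 in ORMES-22 replicate A but 4.79 and 4.43 in replicates B and C. It was 9.40, 9.33 and 9.27 in rPESC-2 and 9.18, 9.26 and 9.15 in ORMES-9. In the fibroblasts it was 3.63, 3.73 and 3.44. The fibroblasts were at background, 2 ORMES-22 arrays were just above it, and replicate A stood apart from both. The standard deviation of SH3YL1 over the ORMES-22 arrays was 1.84, against a median of 0.16 over all genes, and 2 genes had a larger one. The mean differences from ORMES-22 were 3.67 for rPESC-2 (12.7-fold) and 3.53 for ORMES-9 (11.6-fold). Without replicate A they were 4.73 and 4.59, and without replicate C they were 3.05 and 2.91. Each of these moves the fold by over 1.5 times.

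AKAP7 ran the other way. The log2 level of its brightest probe set was 6.65, 7.85 and 7.90 in ORMES-22. It was 4.26, 4.02 and 4.14 in rPESC-2, 4.13, 4.26 and 4.17 in ORMES-9, and 4.49, 4.58 and 4.32 in the fibroblasts. ORMES-22 was the population with a clear signal: 2 of the 3 arrays of each parthenogenetic line were at background, and the third of each and the fibroblasts lay barely above it. The difference from ORMES-22 was -3.33 for rPESC-2 (10.0-fold lower) and -3.28 for ORMES-9 (9.70-fold lower).

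The nuclear repressor ZBTB33 was lowest in ORMES-22 but not in a class of its own. The log2 level of its brightest probe set was 4.73, 4.31 and 4.30 in ORMES-22. It was 7.82, 7.73 and 7.02 in rPESC-2, 7.15, 7.06 and 7.16 in ORMES-9, and 9.81, 9.80 and 9.88 in the fibroblasts. The 4 populations formed an order with ORMES-22 just above background, the parthenogenetic lines in the middle and the fibroblasts at the top. rPESC-2 exceeded ORMES-22 by 3.08 (8.46-fold) and ORMES-9 exceeded it by 2.68 (6.40-fold). rPESC-2 and ORMES-9 overlapped, because rPESC-2 replicate C was below all 3 ORMES-9 arrays.

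Of the genes for glycan synthesis, PIGP was low in ORMES-22 and CSGALNACT2 was low in the parthenogenetic lines. The PIGP log2 level was 5.53, 4.68 and 4.57 in ORMES-22. It was 7.69, 7.83 and 7.74 in rPESC-2, 7.98, 8.13 and 7.80 in ORMES-9, and 8.78, 8.89 and 8.92 in the fibroblasts. PIGP thus stayed above background on all 12 arrays, and the fibroblasts were above every ES array. Its mean was 2.83 higher in rPESC-2 (7.09-fold) and 3.05 higher in ORMES-9 (8.26-fold) than in ORMES-22.

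The brightest CSGALNACT2 probe set measured 4.90, 6.97 and 6.21 in ORMES-22. It measured 3.39, 3.29 and 3.49 in rPESC-2, 3.52, 3.33 and 3.45 in ORMES-9, and 9.33, 9.37 and 9.35 in the fibroblasts. All 6 parthenogenetic arrays were at background, the ORMES-22 arrays were spread widely above it, and the fibroblasts were far above both. The difference from ORMES-22 was -2.63 for rPESC-2 (6.21-fold lower) and -2.59 for ORMES-9 (6.03-fold lower). Without ORMES-22 replicate A the differences were -3.20 and -3.16. Of 12993 genes, 10 (0.077%) had all 6 parthenogenetic arrays at background and all 3 ORMES-22 arrays above it. CSGALNACT2, which was picked for this contrast, was among them by its brightest probe set. PEG3, PLAGL1 and SGCE, known as imprinted genes active on the paternal copy, were others, as were CEACAM7, KCTD1, ONECUT1, PGM5, TAFA1 and UBD. Some of these lay near background on both sides, such as CEACAM7 with means of 4.42 in ORMES-22 and 4.19 in the parthenogenetic lines. Whether CSGALNACT2 is imprinted was not tested.

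C1H1orf115 varied most between the ORMES-22 arrays after SH3YL1. Its log2 level was 6.96, 4.38 and 5.87 in ORMES-22. It was 9.0, 8.71 and 8.64 in rPESC-2, 8.91, 8.64 and 9.01 in ORMES-9, and 4.32, 4.80 and 4.44 in the fibroblasts. ORMES-22 replicate B fell inside the fibroblast range and replicate A lay well above it, so ORMES-22 and the fibroblasts overlapped. The means of rPESC-2 and ORMES-9 exceeded that of ORMES-22 by 3.04 (8.24-fold) and 3.11 (8.66-fold). Without replicate A the differences were 3.65 and 3.72, and without replicate B they were 2.37 and 2.44, which moves the fold by over 1.5 times either way.

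With the brightest probe set per gene, 5 of the 7 genes were called higher and 2 lower in rPESC-2 than in ORMES-22, where 1.7% of all genes were called (1.02% higher and 0.685% lower). The same 5 were higher and the same 2 lower in ORMES-9, where 2.29% of all genes were called (1.38% higher and 0.916% lower). Genes called in both lines made up 0.516% (higher) and 0.292% (lower) of all genes. The comparisons share the ORMES-22 arrays, and the choice of the genes fixed these counts, so nothing is read from them. When only the arrays of the groups compared were fitted, GCA, ZBTB33, PIGP and AKAP7 were still called in both lines, and the calls of SH3YL1, C1H1orf115 and CSGALNACT2 ended in both. In the order of all genes by difference, the 5 genes ranked 3 to 10 among the increases for rPESC-2 and 3 to 17 for ORMES-9. AKAP7 ranked 4 and 10 and CSGALNACT2 ranked 7 and 16 among the decreases.

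The word "off" fitted 2 of the 7 genes in the ES lines when every array of the brightest probe set had to be at background. These were GCA in ORMES-22 and CSGALNACT2 in both parthenogenetic lines. A dimmer CSGALNACT2 probe set had 2 of 3 rPESC-2 arrays at background, with the highest at 4.28. In the fibroblasts GCA and SH3YL1 met the condition. ZBTB33, PIGP, SH3YL1 and C1H1orf115 lay above background on all 3 ORMES-22 arrays, and AKAP7 was at background on 2 of 3 arrays in each parthenogenetic line. In the ES lines ZBTB33, PIGP and AKAP7 are better called low than off. Neither word fits SH3YL1 and C1H1orf115 on all ORMES-22 arrays, where they ranged from 4.43 to 7.78 and from 4.38 to 6.96.

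**Figure D2:**
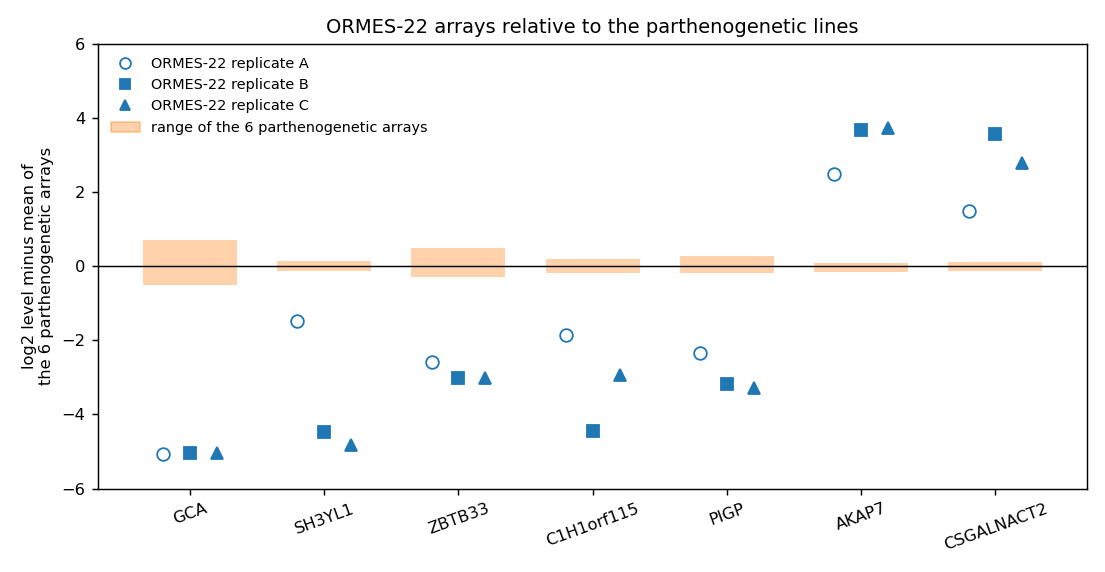
Log2 level of each ORMES-22 array minus the mean of the 6 parthenogenetic arrays (vertical axis) for the 7 genes; the shaded boxes span the range of those 6 arrays. Replicate A (open circles) lies closer to the shaded boxes than replicates B and C for every gene except GCA.

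The 3 ORMES-22 arrays differed among themselves on these genes. Replicate A correlated with replicates B and C at r = 0.9855 and 0.9844 over all probe sets, with the rPESC-2 arrays at 0.9882 to 0.9896 and with the ORMES-9 arrays at 0.9839 to 0.9849. It was thus closer to rPESC-2 than to its own line, and about as close to ORMES-9 as to its own line. For 6 of the 7 genes replicate A lay outside the range of B and C on the side of the parthenogenetic lines. The shift from the mean of B and C was 3.17 log2 units for SH3YL1, 1.83 for C1H1orf115, 0.90 for PIGP and 0.42 for ZBTB33, and it was -1.23 for AKAP7 and -1.69 for CSGALNACT2. GCA was the exception, with a shift of -0.04.

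On the linear scale the same shift can be written as a share of the distance from B and C to the parthenogenetic mean. The share was 78.5% for CSGALNACT2, 62.2% for AKAP7, 32.9% for SH3YL1, 20.4% for C1H1orf115, 10.3% for PIGP and 4.63% for ZBTB33. For GCA it was -0.0797%, which is no shift. The shares of the 7 genes thus differed widely. The same kind of shift was seen in most genes that set the lines apart: replicate A lay outside B and C on the parthenogenetic side for 332 of 393 genes (84.5%) that differed at least 2-fold between ORMES-22 replicates B and C and the parthenogenetic lines, with a median share of 71.2%. For differences of at least 8-fold it did so for 15 of 18 genes (83.3%), with a median share of 26.7%. All 7 genes described here are among these 18 genes, so that count is not independent of them. Both sets were chosen on B and C with A left out, which by itself favours A lying on the parthenogenetic side. Leaving out B or C in the same way was not tried. What sets this array apart was not tested.

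The difference between the parthenogenetic lines is not one of the contrasts that picked the genes. Asking both lines to lie far from ORMES-22 on the same side does favour like levels in them, so the count that follows is partly fixed by the choice. None of the 7 genes was called in ORMES-9 against rPESC-2, where 1.65% of all genes were called, and the lowest adjusted p by limma was 0.297. At an unadjusted p under 0.05, 1 of the 7 passed, ZBTB33, beside 21.8% of all genes. None of the 12 probe sets was called either, where 1.23% of all probe sets were, and none of the 7 genes was called when each of the 12 arrays was left out in turn. The difference and its 95% interval were -0.02 (-0.54 to 0.50) for GCA, -0.14 (-1.51 to 1.23) for SH3YL1 and -0.40 (-0.80 to -0.01) for ZBTB33. They were 0.07 (-0.93 to 1.07) for C1H1orf115 and 0.22 (-0.21 to 0.65) for PIGP. The interval reached from -0.51 to 0.61 around 0.05 for AKAP7 and from -0.75 to 0.83 around 0.04 for CSGALNACT2. A 2-fold difference in either direction lay outside the intervals of GCA, ZBTB33, PIGP, AKAP7 and CSGALNACT2. It lay inside that of SH3YL1 and, for the higher direction, inside that of C1H1orf115. CSGALNACT2 was at background on all 6 parthenogenetic arrays, and AKAP7 on 2 of 3 in each line. A difference between the lines below that level cannot be seen for these genes. The fit shares 1 spread over all groups, and the standard deviation of SH3YL1 was 0.07 in rPESC-2 and 0.06 in ORMES-9 beside 1.84 in ORMES-22. The arrays of the parthenogenetic lines did not overlap for 1 of the 7 genes, SH3YL1, against 30.8% of all genes.

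The fibroblasts were also compared with the mean of the 3 ES lines. The fibroblast arrays took no part in the choice of the genes, but the ES mean is made of the levels that did. Low ES lines that the choice selected pull this mean down for CSGALNACT2, ZBTB33 and PIGP and so enlarge their differences. Of the 7 genes, 3 were called higher and 3 lower in the fibroblasts, where 28.3% of all genes were called (13.2% higher and 15.0% lower). CSGALNACT2 was higher by 5.07 (SE 0.30, adjusted p by limma 1.64e-08), ZBTB33 by 3.47 (SE 0.15, 8.29e-10) and PIGP by 1.98 (SE 0.16, 3.85e-07). For these 3 genes every fibroblast array exceeded all 9 ES arrays, which was so for 22.1% of all genes. The higher genes thus hold both glycan enzymes and the DNA-binding repressor.

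The fibroblast difference was -4.46 for SH3YL1 (SE 0.51, adjusted p by limma 9.17e-06), -3.57 for GCA (SE 0.19, 8.51e-09) and -3.27 for C1H1orf115 (SE 0.37, 8.78e-06), all lower. The fibroblast arrays lay below all 9 ES arrays for SH3YL1 and GCA, as for 36.1% of all genes, and overlapped ORMES-22 for C1H1orf115. The calls of GCA and C1H1orf115 rest on the high parthenogenetic lines that the choice selected. These lines also enlarge the SH3YL1 difference, since they exceeded ORMES-22 by 3.67 (rPESC-2) and 3.53 (ORMES-9). The SH3YL1 p-value is therefore not free of the choice either. The fibroblasts were not tested against ORMES-22 alone. For GCA the mean of the ES lines joins a line at background with lines far above it, and the fibroblast mean (3.72) and the ORMES-22 mean (3.93) are both background. AKAP7 differed by -0.80 (SE 0.21, adjusted p by limma 0.00551), short of 2-fold, and its fibroblast arrays lay between those of the parthenogenetic lines and those of ORMES-22. Sex, donor age, feeder cells and serum level differ between the fibroblasts and the ES lines together with cell type and cannot be told apart. This bears on ZBTB33 in particular, which lies on the X chromosome.

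The order of the 4 populations therefore took several forms. For ZBTB33 and PIGP it ran from ORMES-22 through the parthenogenetic lines to the fibroblasts. For CSGALNACT2 it ran from the parthenogenetic lines through ORMES-22 to the fibroblasts. By their means SH3YL1 and C1H1orf115 were lowest in the fibroblasts, next in ORMES-22 and highest in the parthenogenetic lines, although fibroblast and ORMES-22 arrays overlapped for C1H1orf115. GCA was at background in the fibroblasts and in ORMES-22, so no order between those is measured, and it was highest in the parthenogenetic lines. AKAP7 was near background in the parthenogenetic lines and the fibroblasts and highest in ORMES-22. The arrays of rPESC-2 and ORMES-9 overlapped for every one of the 7 genes except SH3YL1.

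**Figure D3:**
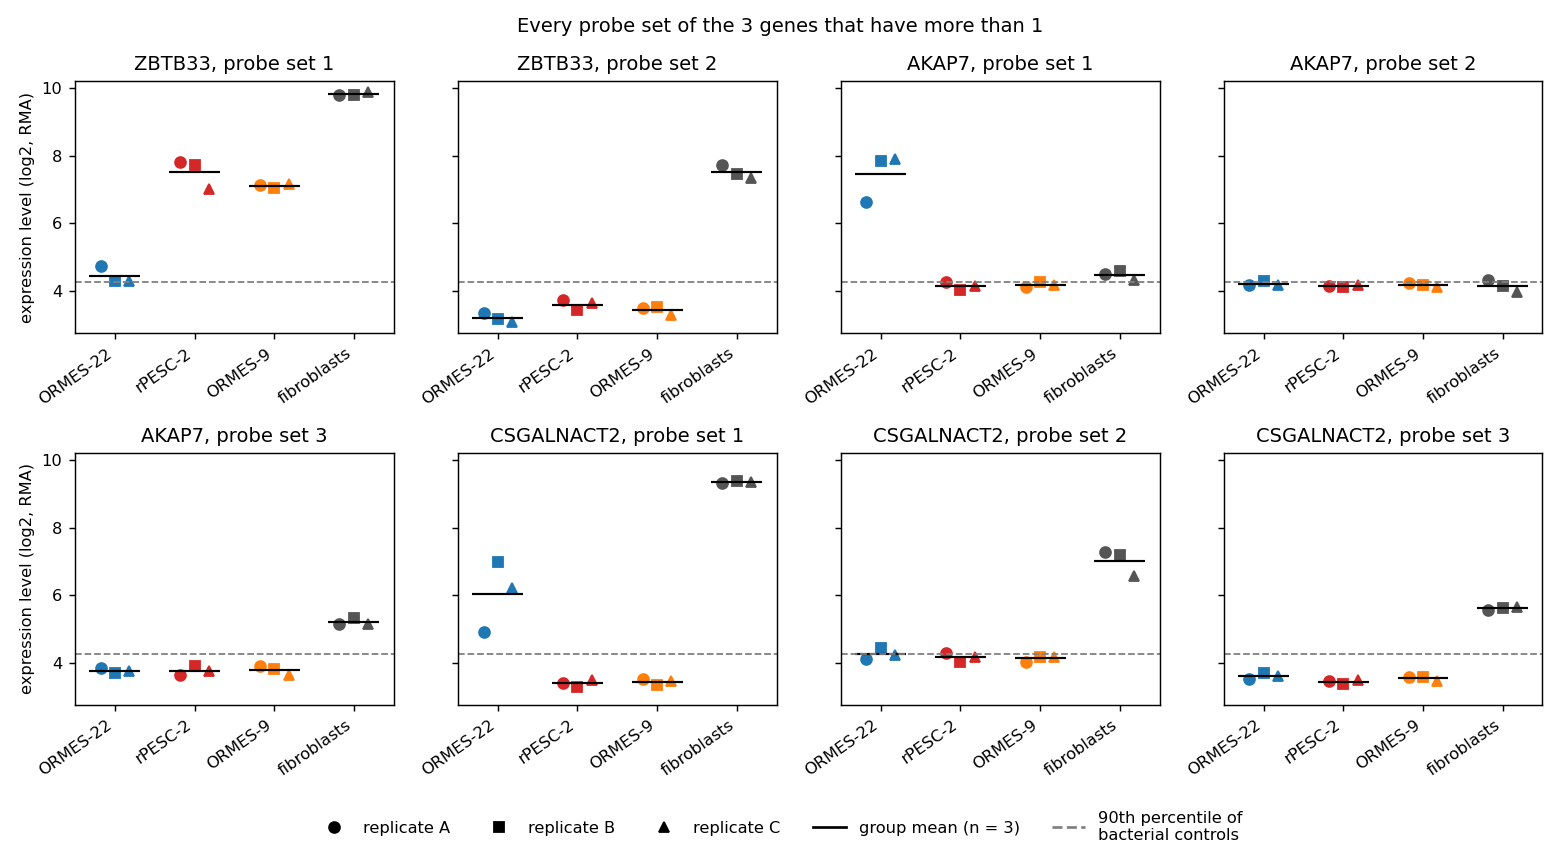
Log2 level (vertical axes) of every probe set of ZBTB33, AKAP7 and CSGALNACT2 on each array, numbered from the brightest, with the mean of 3 arrays as a bar and the background as a dashed line at 4.26. The step between ORMES-22 and the parthenogenetic lines appears in probe set 1 of each gene and in none of the 5 others, while the fibroblast arrays stand above the ES arrays in 4 of those 5.

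GCA, SH3YL1, C1H1orf115 and PIGP were each measured by 1 probe set, and the other 3 genes by several that differed in their pattern. None of the 5 further probe sets was called between ORMES-22 and either parthenogenetic line, where 1.24% (rPESC-2) and 1.57% (ORMES-9) of all probe sets were called. The second ZBTB33 probe set measured 7.73, 7.46 and 7.36 in the fibroblasts and between 3.09 and 3.72 on the 9 ES arrays. It was at background in every ES line, and rPESC-2 and ORMES-9 differed from ORMES-22 by 0.40 and 0.24. In the fibroblasts it was higher by 4.10 (SE 0.10, adjusted p by limma 3.1e-12), the same direction as the brightest one.

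CSGALNACT2 showed the same picture. Its second probe set measured 7.28, 7.19 and 6.57 in the fibroblasts and between 4.02 and 4.44 on the ES arrays, and the third measured 5.56, 5.63 and 5.65 against 3.36 to 3.68. Both were called higher in the fibroblasts, by 2.83 (SE 0.13, adjusted p by limma 2.08e-09) and 2.09 (SE 0.06, 2.46e-11). Their differences from ORMES-22 were between -0.16 and -0.06. The ES part of the CSGALNACT2 pattern thus rests on 1 probe set, and the fibroblast part on all 3.

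AKAP7 was the gene whose probe sets went opposite ways. One of the dim probe sets measured 5.15, 5.33 and 5.15 in the fibroblasts and 3.65 to 3.91 on the ES arrays, so it was called higher in the fibroblasts by 1.44 (SE 0.08, adjusted p by limma 8.03e-09), while the brightest one was lower there. The remaining one stayed between 3.98 and 4.32 on all 12 arrays and was not called in any comparison. With all 12 probe sets counted, 7 were called higher and 3 lower in the fibroblasts, where 19.3% of all probe sets were called (10.5% higher and 8.79% lower). Which transcripts each probe set detects was not tested.

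**Figure D4:**
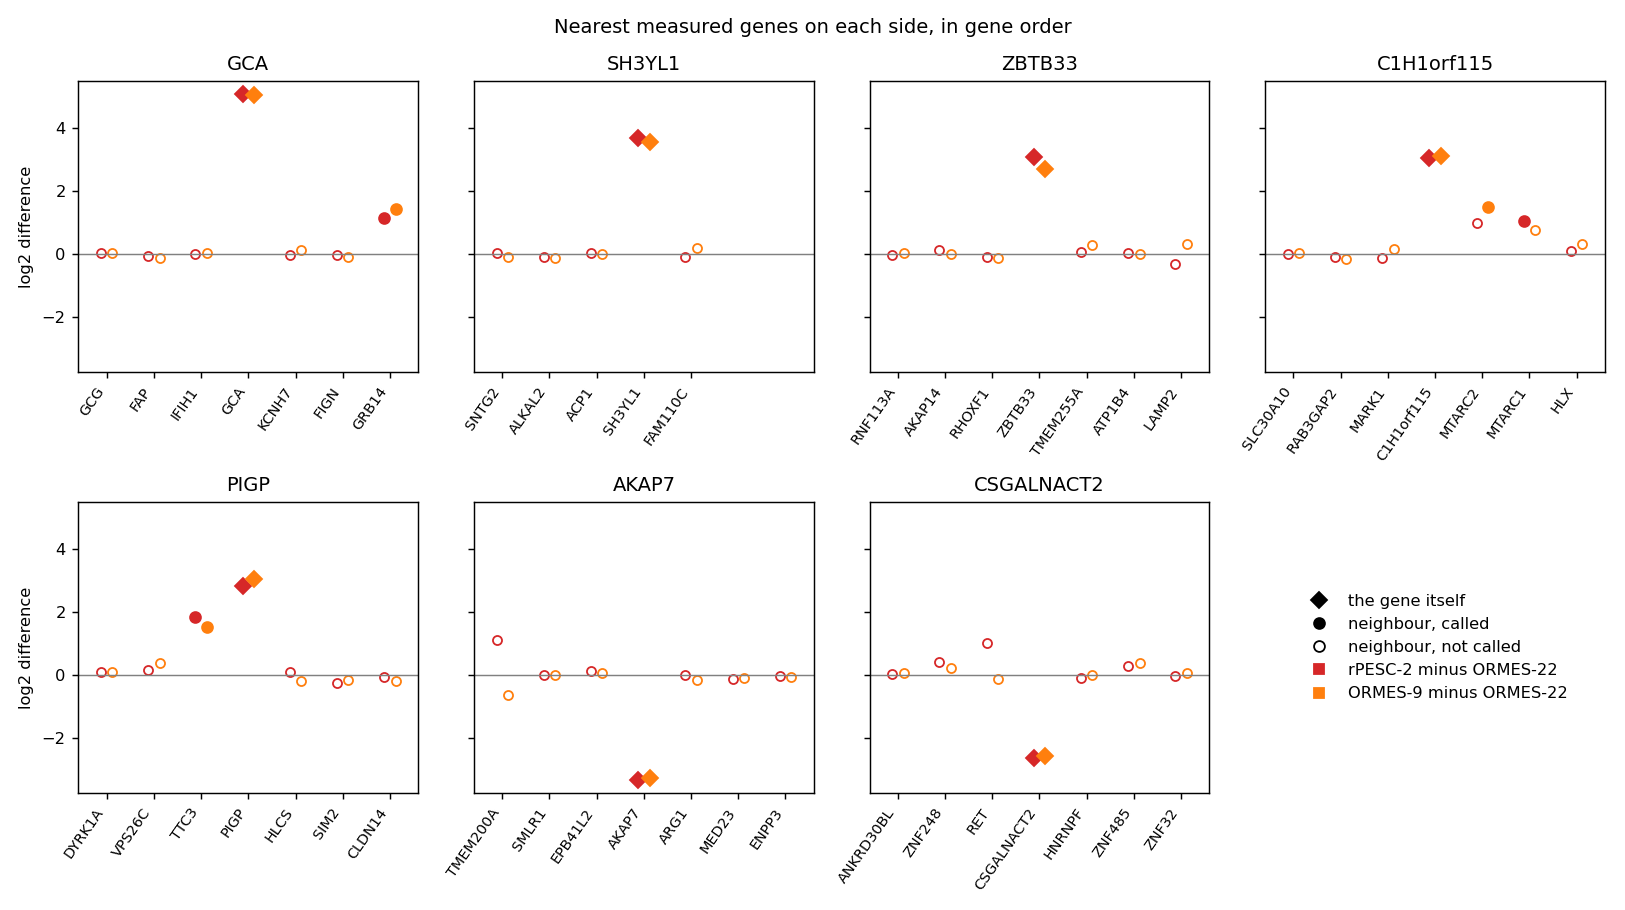
Log2 difference from ORMES-22 (vertical axes) of the 7 genes (diamonds) and of up to 3 measured genes on each side in gene order (circles, filled where called), red for rPESC-2 and orange for ORMES-9. Called neighbours stand beside C1H1orf115 (MTARC1 or MTARC2) and PIGP (TTC3) and in the third place from GCA (GRB14), and the other 4 genes have none.

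The nearest measured genes on each side of the 7, up to 3 per side, were tested, since they were not used in the choice. Not all were adjacent. In the order of protein-coding genes, ZNF248 and ANKRD30BL lay 21 and 32 places from CSGALNACT2, and RNF113A lay 7 from ZBTB33. On one side of SH3YL1 only FAM110C was measured. In the gene order of the rhesus assembly T2T-MMU8v2.0, 40 neighbours were measured. Of these, 3 were called higher and 0 lower in rPESC-2 than in ORMES-22, and 3 higher and 0 lower in ORMES-9, by limma, beside 1.02% and 1.38% of all genes called higher. At an unadjusted p under 0.05, 8 were higher and 1 lower in rPESC-2 and 8 higher and 0 lower in ORMES-9. Their median difference was 0.01 in both comparisons. TTC3, a ubiquitin ligase gene beside PIGP, measured 7.77, 7.10 and 7.09 in ORMES-22, 9.25, 9.36 and 8.89 in rPESC-2 and 9.06, 8.68 and 8.75 in ORMES-9. ORMES-22 lay below both parthenogenetic lines, which overlapped each other, and TTC3 rose by 1.84 in rPESC-2 (SE 0.19, adjusted p by limma 0.000183) and by 1.51 in ORMES-9 (SE 0.19, 0.000504). It was also higher in the fibroblasts, by 1.89 (SE 0.16, 4.2e-07), so its order of populations was that of PIGP. Of 4 dimmer TTC3 probe sets, 2 were called higher in rPESC-2 and 1 in ORMES-9.

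MTARC2 and MTARC1, which encode related molybdenum-dependent reductases of mitochondria, are the nearest measured genes on one side of C1H1orf115. MTARC2 measured 7.70, 7.55 and 7.43 in ORMES-22, 8.59, 8.52 and 8.55 in rPESC-2 and 8.99, 9.07 and 9.05 in ORMES-9, without overlap. It rose by 1.48 in ORMES-9 (SE 0.09, adjusted p by limma 2.31e-06) and differed by 0.99 in rPESC-2 (SE 0.09, 9.35e-05), just short of 2-fold. Of its dimmer probe sets, one gave 1.29 in ORMES-9 (called) and 0.84 in rPESC-2, and the other 0.78 and 0.61, not called. MTARC1 rose by 1.04 in rPESC-2 (SE 0.24, adjusted p by limma 0.031), a call lost in 8 of the 12 fits that left out an array, and differed by 0.74 in ORMES-9 (adjusted p 0.107). Without ORMES-22 replicate A it was called in both, at 1.41 and 1.12. Both MTARC genes fell in the fibroblasts, as C1H1orf115 did, with differences of -2.15 and -1.92.

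GRB14, a growth factor receptor adaptor gene in the third place from GCA, rose by 1.14 in rPESC-2 (SE 0.19, adjusted p by limma 0.00556) and by 1.43 in ORMES-9 (SE 0.19, 0.000794). The first of these calls was lost without ORMES-22 replicate C. The nearest measured genes on either side of GCA, IFIH1 and KCNH7, were not called in either comparison. SH3YL1, ZBTB33, AKAP7 and CSGALNACT2 had no called neighbour in either, and ACP1 beside SH3YL1 differed by 0.03 and -0.02. Between the parthenogenetic lines 1 neighbour was called, TMEM200A near AKAP7, whose difference was -1.76 in ORMES-9 (adjusted p by limma 0.00552). Without ORMES-22 replicate A the called neighbours numbered 6 in rPESC-2 (15.0%) and 4 in ORMES-9 (10.0%), all higher, while the share of all genes called higher was then 2.59% and 2.22%. Those in rPESC-2 then included TMEM200A near AKAP7 and RET beside CSGALNACT2, opposite in direction to AKAP7 and CSGALNACT2. TMEM200A and RET were then also called lower in ORMES-9 than in rPESC-2.

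**Figure D5:**
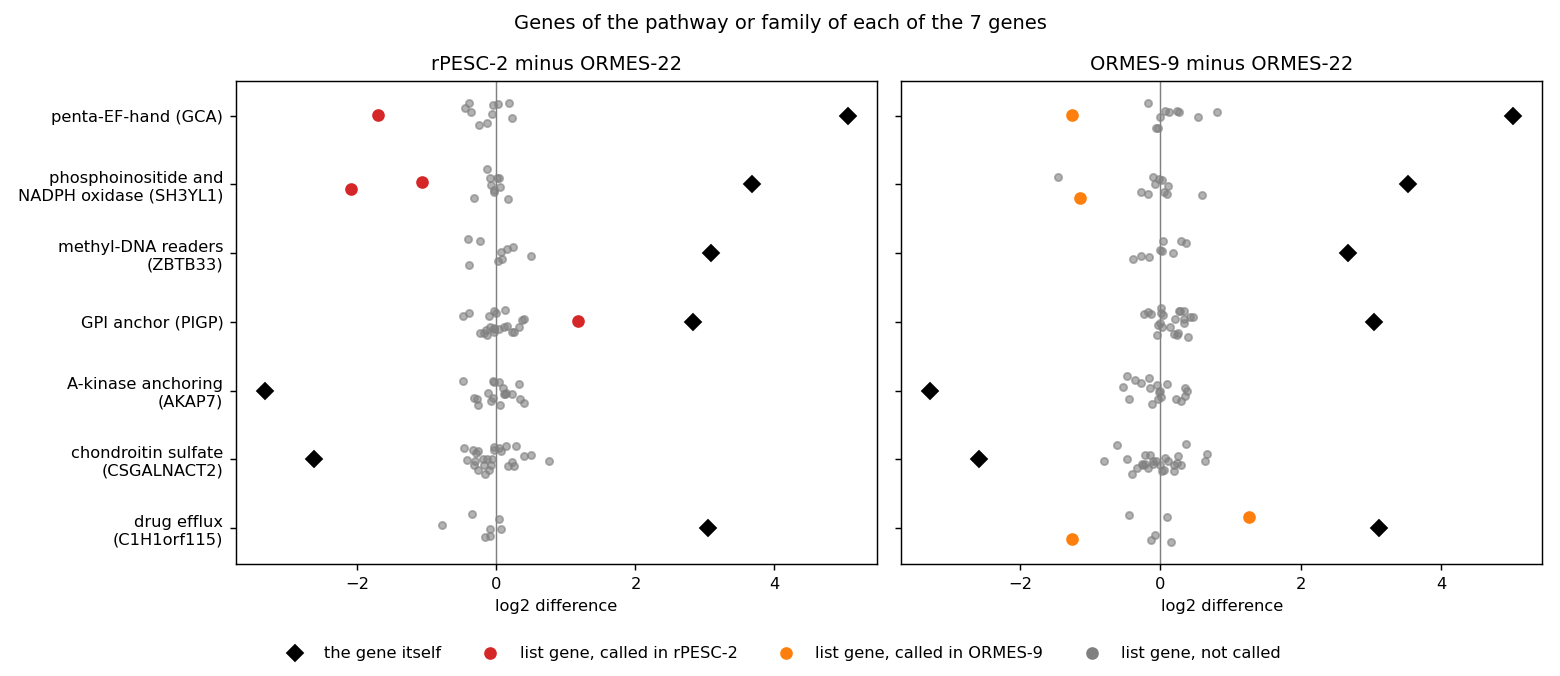
Log2 difference from ORMES-22 (horizontal axes) of each of the 7 genes (diamonds) and of the measured genes of its pathway or family (circles, coloured where called), for rPESC-2 (left) and ORMES-9 (right). The diamonds were picked for the size of these differences and lie farthest out for that reason, and of the listed genes 4 were called in rPESC-2 and 4 in ORMES-9.

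The pathways of the 7 genes were then counted, without the 7 genes themselves. For GPI anchors, 23 of 29 listed genes were measured. In rPESC-2, 1 was called higher, PGAP1, which removes a fatty acid from the finished anchor (1.17, SE 0.25, adjusted p by limma 0.0218), and 0 lower. Leaving out ORMES-22 replicate B, ORMES-22 replicate C, rPESC-2 replicate B or rPESC-2 replicate C each ended the call of PGAP1, and a dimmer PGAP1 probe set at 0.08 was not called. In ORMES-9 none was called by limma, while 8 were higher and 1 lower at an unadjusted p under 0.05, beside 4 higher and 2 lower (26.1%) in rPESC-2. The list's median difference was -0.03 in rPESC-2 and 0.20 in ORMES-9, beside -0.03 and -0.01 over all genes. In the fibroblasts 4 were called higher and 2 lower, among them PIGX at 1.27 and PGAP6 at -1.34. All genes gave 26.2% at an unadjusted p under 0.05 in rPESC-2 and 24.5% in ORMES-9, the values to set such counts against.

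For chondroitin sulfate, none of 27 measured genes of 35 listed was called by limma between ORMES-22 and either parthenogenetic line, while 11 in rPESC-2 and 10 in ORMES-9 had an unadjusted p under 0.05. The median was -0.08 in rPESC-2 and -0.06 in ORMES-9. In the fibroblasts, where CSGALNACT2 was highest, 8 were called higher and 1 lower. DSEL, an epimerase of the chain, rose by 6.14, the sugar transporter gene SLC35D1 by 3.14, the sulfate donor synthase gene PAPSS2 by 2.61 and the sulfotransferase gene UST by 2.53, each called by limma. CHST15, another sulfotransferase gene, fell by 3.03. The 8 higher genes of 27 stand beside the 13.2% of all genes called higher there.

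The kinase A list held 19 measured genes of 26, none called by limma in either parthenogenetic line, with medians of 0.04 and -0.04. At an unadjusted p under 0.05, 6 passed in rPESC-2 and 7 in ORMES-9. In the fibroblasts the regulatory subunit gene PRKAR2A rose by 2.03, and 3 genes fell, among them the kinase A inhibitors PKIG (-2.63) and PKIA (-2.17). The list of methyl-DNA readers and Kaiso partners held 9 measured genes of 15, and none was called by limma in either parthenogenetic line, with medians of 0.06 and 0.03. At an unadjusted p under 0.05, 2 passed in each. CTNND1, which encodes p120 catenin, differed by 0.50 in rPESC-2 and was not called. In the fibroblasts, where ZBTB33 was highest, the related zinc finger genes ZBTB38 and ZBTB4 rose by 3.22 and 1.42. MBD2 (-5.28), CTNND1 (-1.69) and TBL1X (-1.04) fell there.

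Of the calcium-binding relatives of GCA and its partner L-plastin, 11 of 12 were measured. CAPN9, a calpain gene, was the one called, at -1.70 in rPESC-2 (SE 0.17, adjusted p by limma 0.000129) and -1.26 in ORMES-9 (SE 0.17, 0.000703). A dimmer CAPN9 probe set gave -0.97 and -0.76 and was not called. Its direction was opposite to that of GCA. In the fibroblasts LCP1, the gene of L-plastin (-3.79), and CAPN9 (-1.24) fell, and CAPN2 rose by 1.49. The median of the list was -0.13 in rPESC-2 and 0.06 in ORMES-9.

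Of 16 listed partners of SH3YL1 in lipid and oxidase signalling, 12 were measured, and 2 of them were called in rPESC-2 and 1 in ORMES-9, all lower. INPP5D, the gene of a phosphoinositide phosphatase, was at -1.07 in rPESC-2 (SE 0.14, adjusted p by limma 0.00102) and -1.14 in ORMES-9 (SE 0.14, 0.000417). Both calls ended without ORMES-22 replicate B, and the first also without rPESC-2 replicate C. A dimmer INPP5D probe set gave -0.61 and -0.37 and was not called. NOX4, an NADPH oxidase gene, measured 5.69, 7.11 and 7.56 in ORMES-22, 5.46, 4.58 and 4.02 in rPESC-2 and 4.81, 5.69 and 5.47 in ORMES-9. It fell by 2.09 in rPESC-2 (SE 0.44, adjusted p by limma 0.0201), a call that 4 of 12 omissions of an array ended, and differed by -1.46 in ORMES-9 (0.0831), where it was called at -2.01 without ORMES-22 replicate A. In the fibroblasts INPP5D (-1.82) and NOX4 (-1.67) fell, and the kinase genes PIK3R1 and PIK3CA rose by 3.32 and 1.19.

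All 7 listed drug efflux genes were measured beside C1H1orf115. None was called in rPESC-2 by limma, and 2 were lower at an unadjusted p under 0.05. In ORMES-9 ABCC2 fell by 1.26 (SE 0.15, adjusted p by limma 0.000337) and ABCG2 rose by 1.26 (SE 0.21, 0.00305). A second ABCC2 probe set was called lower in both lines, at -1.26 and -1.51, and a second ABCG2 probe set was not called. ABCG2 was the one listed pathway gene called between the parthenogenetic lines, higher by 1.36 in ORMES-9 (SE 0.21, adjusted p by limma 0.00229). In the fibroblasts ABCB1 rose by 5.54 and ABCC4 by 1.88, and ABCG2 (-1.72) and ABCC2 (-1.15) fell.

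The genes most like each of the 7 over the 12 arrays were found by Pearson correlation among 2383 genes with a range of at least 2 log2 units. They were FOXA2 (r = 0.964), THEMIS2 (0.955) and WFDC2 (0.953) for GCA, and C11H12orf56 (0.993), ADAMTS19 (0.985) and RGL3 (0.977) for SH3YL1. For C1H1orf115 they were ADAMTS19 (0.975), C11H12orf56 (0.971) and TESMIN (0.964), so a pair of names recurred. For ZBTB33 they were TTC3 (0.988), PPCS (0.986) and C19H19orf12 (0.980), and for PIGP they were DCTD (0.980), TTLL6 (0.975) and NSMCE1 (0.959). For AKAP7 they were ONECUT1 (0.960), PEG3 (0.949) and MLKL (0.901), and for CSGALNACT2 they were PDE8A (0.992), ANKFN1 (0.989) and ADARB1 (0.985). The 12 arrays form 4 groups, so each r mostly restates the order of the group means. Of these 21 names, 4 were chosen again over the 9 ES arrays and 1 with Spearman's rank correlation.

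Markers of cell types were read beside these results. The mean log2 level of 11 measured pluripotency markers of 14 was 9.29 to 9.83 on the ES arrays, with none at background, and 4.94 to 5.05 in the fibroblasts. NANOG went against this, at 9.53 in the fibroblasts and 7.95 to 8.41 in the means of the ES lines, and ZFP42 was near background in all 4 populations. Against ORMES-22, limma called GDF3 higher in rPESC-2 (1.23) and ORMES-9 (1.29), and PRDM14 higher in ORMES-9 (1.56). PRDM14 was also called higher in ORMES-9 than in rPESC-2, and no pluripotency marker was called lower in these comparisons. Of 12 measured fibroblast and matrix genes of 15, 3 were called lower in rPESC-2 and 1 in ORMES-9 than in ORMES-22. Their mean was 8.37 to 8.82 in ORMES-22, 7.33 to 8.02 in rPESC-2, 7.64 to 8.01 in ORMES-9 and 11.38 to 11.41 in the fibroblasts, and their summed linear level was 15008 to 22985, 8113 to 13867, 9486 to 12758 and 75043 to 78069 in the same order. Among the ORMES-22 arrays, replicate B was highest and replicate A lowest both for this mean and for CSGALNACT2. The mean of 6 measured mesoderm genes had the same order (6.65, 7.19 and 6.89 in A, B and C), and the other marker lists did not. With 3 arrays, few orders are possible. CSGALNACT2 was at background on the rPESC-2 and ORMES-9 arrays, so no order among those arrays is measured. A link between CSGALNACT2 and either list was not tested. LUM was the 1 gene of the 12 fibroblast and matrix genes at background in the ES lines (means 3.59, 3.70 and 3.91 in the order ORMES-22, rPESC-2, ORMES-9). The others lay above it, such as VIM at 13.40, 12.60 and 12.43, COL1A1 at 11.30, 10.48 and 10.40 and TWIST1 at 8.47, 6.67 and 5.80. DCN (7.02, 7.05 and 7.27) and THY1 (10.06, 9.13 and 10.02) went against the list. Their fibroblast means, 6.69 and 9.42, lay below those of ORMES-22.

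Of 7 measured endoderm genes of 9, 4 were called higher in rPESC-2 and 3 in ORMES-9 than in ORMES-22. Their mean was 6.25 to 6.80 in ORMES-22, 7.86 to 8.05 in rPESC-2 and 7.48 to 7.92 in ORMES-9, with no gene at background in these lines, and the summed linear level was 716 to 1023, 1899 to 2085 and 1494 to 1845. One of them, FOXA2, had the highest Pearson correlation with GCA over the 12 arrays, and it was not among the first 3 over the 9 ES arrays or by rank correlation. Of 6 mesoderm genes measured, 1, ACTC1, was called lower in both lines, and none of 10 trophoblast and 2 neuroectoderm genes was called by limma. At an unadjusted p under 0.05, 4 and 2 of the trophoblast genes passed in rPESC-2 and ORMES-9 and 1 of the neuroectoderm genes in each. The part of other cell types in the levels of the 7 genes was not tested.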

How the data were processed

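Total RNA of 12 cultures was measured on 1 Affymetrix rhesus array each. The deposited values are on the log2 scale, 1 per probe set, and the submitters' processing notes name RMA as the authors' method. Its version and software are not given in the sources used here. RMA equalises array distributions and compresses differences near background. The number of arrays limits the precision. After 99 control features were left out, 52766 probe sets remained, named from the platform annotation (24956 with 1 symbol, 361 with several, 27449 with none).

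The tests used limma 3.58.1 (R 4.3.3), fitting 4 group means over 12 arrays (8 residual and 3.69 prior degrees of freedom), two-sided, with Benjamini-Hochberg adjustment over all probe sets. The method was tested on simulated data. Named genes were all members, called neighbours and called list genes or those with large differences, and per gene the 3 highest correlations. The members and lists were chosen with earlier results of these data known. Gene order came from T2T-MMU8v2.0, which is not the array's build. Promoter and protein sequences were not used here. Alternatives were other normalisations, moderation settings, array weights, filters, probe sets, the replicate letter as a block and each array left out.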

Additional observations from a re-analysis of the deposited data

How the results depend on the processing

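The differences of the 7 genes from ORMES-22 kept their sign with each of the 12 arrays left out, at 4.71 to 5.32 for GCA, 3.05 to 4.73 for SH3YL1 and -3.20 to -2.16 for CSGALNACT2 in rPESC-2. The choice of probe set mattered more: in the fibroblasts against the ES mean the brightest AKAP7 probe set gave -0.80, not called, and a dimmer one 1.44. The high ORMES-22 level that the choice selected pulls the first of these down. Over all probe sets, the calls of rPESC-2 against ORMES-22 numbered 656, and they were 2536 without a minimum fold, 332 when only the groups compared were fitted, 1006 with array weights and 460 to 1493 with each array left out, the highest without ORMES-22 replicate A. For ORMES-9 against ORMES-22 they numbered 831, with 3158 without a minimum fold and 717 to 1284 with each array left out. Without a minimum fold the calls rose from 650 to 2753 between the parthenogenetic lines and from 10169 to 31829 for the fibroblasts. The replicate letters do not pair the samples (correlations of deviations between -0.31 and 0.26, with 6 of 18 over 0.1), and a fit with the replicate letter as a block gave 631, 821, 639 and 10169 calls in the same order. Omission of ORMES-22 replicate A for lists and neighbours, and the other probe sets of neighbours, were chosen after seeing the data. With 3 arrays of 1 line per group, signal near background limits what can be seen for GCA, AKAP7 and CSGALNACT2.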
